A study of Rattus norvegicus with 5 samples.

Results

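The genes described here are 10 that encode the interleukin-6 (IL-6) family signalling route, of 17321 genes in the deposited table: the ligands Il6, Lif, Clcf1 and Cntf, the receptor chains Il6r, Osmr, Lifr and Il6st, the transcription factor gene Stat3, and Socs3, which encodes an inhibitor of the route. They were chosen by name, as the rows of the count table whose gene symbol matches, and all 10 were found. RNA came from lumbar (L4-L6) spinal dorsal horn of Sprague Dawley rats, which had undergone CCI or SHAM surgery 9 days earlier. CCI commonly stands for chronic constriction injury, in which ligatures are tied around a peripheral nerve, and a SHAM operation leaves the nerve untied. There were 3 CCI libraries and 2 SHAM libraries, and no other group. The labels give neither the side taken, nor the sex or age of the rats, nor whether a library is 1 animal or a pool, so p-values measure only the spread between these libraries.

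Cytokines of the IL-6 family act through receptor complexes that share the chain gp130, the product of Il6st. IL-6 first binds its own receptor, the product of Il6r, while leukaemia inhibitory factor (Lif), ciliary neurotrophic factor (Cntf) and cardiotrophin-like cytokine (Clcf1) signal through gp130 paired with the product of Lifr, and oncostatin M through gp130 paired with the product of Osmr or of Lifr. Janus kinases bound to these chains phosphorylate STAT3, which enters the nucleus and switches on genes that include its own inhibitor Socs3. In the spinal cord the route is known from reactive astrocytes and from microglia after nerve injury.

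The libraries held 20053353 to 23673198 estimated counts. Neuronal genes of the dorsal horn were present in each of them: the glutamate transporter gene Slc17a6 at 291 to 342 CPM (counts scaled to library size), the GABA synthesis gene Gad1 at 140 to 153 CPM and Tac1, the substance P precursor gene, at 40.5 to 89.7 CPM. Motor neuron genes, which belong to the ventral horn, were present too, with a summed level over 7 genes of 574 to 832 CPM in SHAM and 130 to 378 CPM in CCI, and 4 of the 7 were called lower. CCI 2 and CCI 3 stood apart from the other libraries in genes of peripheral nerve and connective tissue. The 8 Schwann cell genes summed to 318 CPM in CCI 2 and 718 CPM in CCI 3 against 118 to 130 CPM in CCI 1 and both SHAM libraries, and the 8 fibroblast genes summed to 820 and 686 CPM against 150 to 193 CPM; none of these genes was called or at 0. Ribosomal RNA took 16% of counts in CCI 3, against 2.18% to 2.71% elsewhere. In whole tissue, fewer cells of a type and less RNA per cell cannot be told apart.

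After CCI, the 2 receptor chain genes Il6r and Osmr and the inhibitor gene Socs3 were higher, while the shared chain Il6st, the partner chain Lifr and the ligand Cntf were not called. Calls required a change of 1.5-fold or more together with an adjusted p no higher than 0.05, as the series defines differential expression. Of the 10 genes 8 passed the filter on low counts; 3 were called higher and none lower, where 2.59% of all 13478 tested genes were called higher and 0.26% lower. By edgeR's unadjusted p under 0.05, 5 of the 8 were higher and 0 lower. Such p-values were common: Clcf1, with an unadjusted p of 0.0482 in that test, ranked only 2102 by p among all 13478 tested genes, either direction counted. The likelihood ratio test and DESeq2 called the same 3, while limma-voom called 2 of them, Il6r and Socs3. In 5 of the 8 every CCI library stood above both SHAM libraries, as it did in 18.6% of tested genes, and in none did every CCI library stand below, as in 18.1%. The median log2 fold change (CCI minus SHAM) was 0.69 over the 8 genes and 0.01 over all tested genes. Il6 and Lif had too few counts to be tested.

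**Figure D1:**
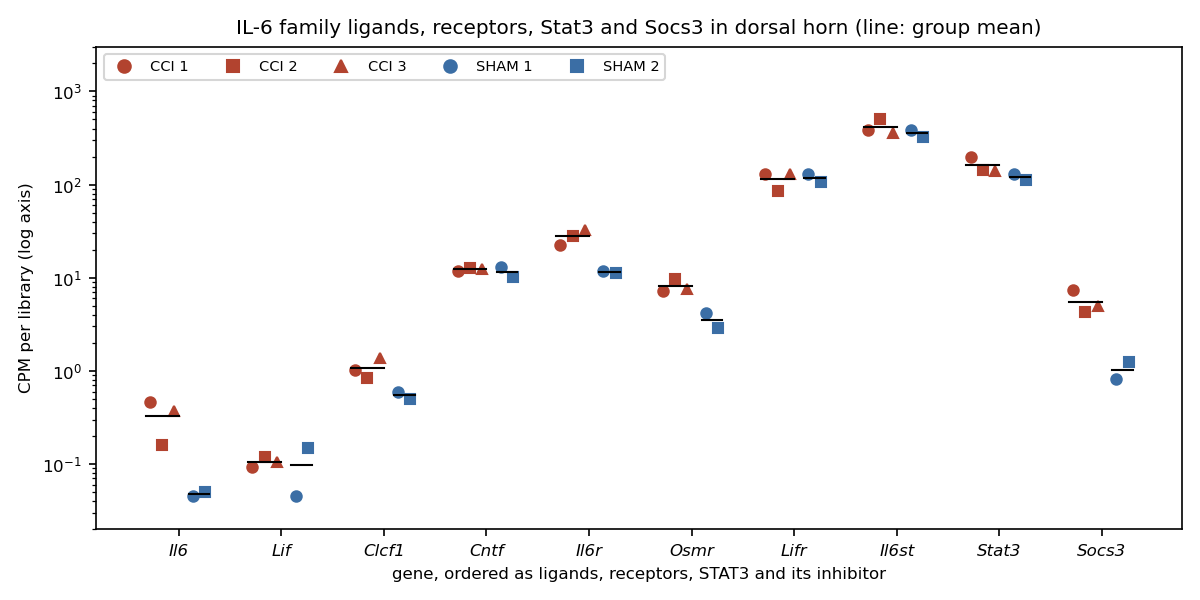
Level of each of the 10 genes in every library, in CPM on a log axis; red marks are the 3 CCI libraries, blue marks the 2 SHAM libraries and short lines the group means. The red and blue marks are apart for Il6, Clcf1, Il6r, Osmr, Stat3 and Socs3, and they overlap for Lif, Cntf, Lifr and Il6st.

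Among the ligands, Cntf was by far the best covered. Cntf encodes a factor that supports the survival of neurons and is made by astrocytes and Schwann cells. It stood at 11.9, 12.6 and 12.4 CPM in CCI 1 to 3 against 12.9 and 10.3 CPM in SHAM 1 and SHAM 2, so the CCI libraries lay between the SHAM libraries. Its log2 fold change was 0.08 (SE 0.15, 95% interval -0.27 to 0.43, adjusted p = 0.828), which leaves room for a fold between 0.831 and 1.34. The summed Schwann cell markers were 121, 318 and 718 CPM in CCI 1 to 3, without a matching climb in Cntf. Adding the Schwann cell level as a covariate left the Cntf estimate at 0.09 (SE 0.21), again not called. Which cells the Cntf transcripts came from was not tested.

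Il6, the gene of the family's founding cytokine, was barely detected. It had 10, 4 and 7 counts in the CCI libraries and 1 count in each SHAM library, so every CCI library was above both SHAM libraries. The summed counts of 21 against 2 give a ratio of 6.72 in CPM, with an exact 95% interval of 1.64 to 59.1 that covers counting error only. When no gene was filtered out, edgeR's quasi-likelihood test gave Il6 a p of 0.0186 and an adjusted p of 0.218, so it was not called. Lif had 2, 3 and 2 counts in CCI and 1 and 3 in SHAM. No difference in Lif was detectable at this depth, where 3 counts equal 0.119 to 0.159 CPM.

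Clcf1, the gene of cardiotrophin-like cytokine, was tested on few counts. It had 22, 21 and 26 counts in CCI and 13 and 10 in SHAM, or 1.02, 0.834 and 1.38 CPM against 0.591 and 0.5 CPM. The groups did not overlap, but the difference was not called (log2 fold change 0.96, SE 0.42, adjusted p = 0.309).

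Of the receptor chains, Il6r encodes the one that binds IL-6 itself. Il6r stood at 22.2, 28.3 and 32.5 CPM in CCI 1 to 3 against 11.7 and 11.3 CPM in SHAM. The lowest CCI library, CCI 1, was still well above both SHAM libraries, which lay close together. Il6r rose by 1.26 on the log2 scale (SE 0.17, 2.4-fold, 95% interval 1.83 to 3.16, adjusted p = 0.00522), from 11.5 ± 0.241 CPM (SD, n = 2) to 27.7 ± 5.18 CPM (SD, n = 3). It ranked 133 of all tested genes by p. With the Schwann cell level as a covariate the log2 fold change was 0.98 (adjusted p = 0.0279). Leaving out both CCI 2 and CCI 3 gave 0.94 (adjusted p = 0.00975), but the CCI arm is then CCI 1 alone, and the fit assumes that it varies like the SHAM libraries. Leaving out either SHAM library ended the call, with log2 fold changes of 1.28 without SHAM 1 (adjusted p = 0.127) and 1.23 without SHAM 2 (adjusted p = 0.107).

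Microglial genes moved in the same direction as Il6r. Of 8 microglial markers 6 were called higher, with a median log2 fold change of 1.43, and their summed level was 903 to 999 CPM in CCI against 321 to 361 CPM in SHAM; none was at 0. Csf1r, the receptor that keeps microglia alive, stood at 312, 354 and 304 CPM in CCI against 95.6 and 111 CPM in SHAM. Their part in the Il6r result was not tested.

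Osmr encodes the chain that binds oncostatin M together with gp130. It stood at 7.17, 9.61 and 7.48 CPM in CCI against 4.14 and 2.85 CPM in SHAM, from 141 to 242 and 57 to 91 counts. The CCI libraries were alike, CCI 1 among them, and all lay above SHAM 1, the higher of the SHAM libraries. Osmr rose by 1.21 (SE 0.24, 2.31-fold, 95% interval 1.57 to 3.39, adjusted p = 0.034), the weakest of the 3 calls. It was not called with limma-voom (adjusted p = 0.0559), without CCI 3 (0.0703), without SHAM 1 (0.15), without SHAM 2 (0.295), with CCI 2 and CCI 3 left out (0.0986) or with the Schwann cell level as a covariate (0.174), although its log2 fold change stayed between 0.96 and 1.50 in these settings.

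The other chains were more abundant and were not called. Il6st, the gene of gp130, stood at 388, 507 and 360 CPM in CCI against 383 and 326 CPM in SHAM. The groups overlapped, with CCI 2 the highest library and CCI 3 below SHAM 1. Its log2 fold change was 0.24 (SE 0.16, adjusted p = 0.499), and the 95% interval of the fold ran from 0.914 to 1.52. Lifr, the chain that pairs with gp130 for Lif, Cntf and Clcf1, stood at 130, 85.5 and 131 CPM in CCI against 130 and 107 CPM in SHAM. CCI 2 was the lowest library for Lifr, and the other CCI libraries were level with SHAM 1. Its log2 fold change was -0.04 (SE 0.20, adjusted p = 0.94), with a 95% interval of the fold from 0.706 to 1.34. Lifr had fractional estimated counts, which can arise where reads also fit another row, and is uncertain.

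Stat3 encodes the transcription factor at the centre of the route. It stood at 200, 145 and 141 CPM in CCI against 129 and 111 CPM in SHAM. Every CCI library was above both SHAM libraries, with CCI 1 set apart from the others at the top. The log2 fold change of 0.43 (SE 0.17, 1.35-fold, 95% interval 1.03 to 1.76) had an unadjusted p of 0.0333 and an adjusted p of 0.262, so Stat3 was not called. It was called with CCI 2 and CCI 3 left out (0.72, adjusted p = 0.0121), where the CCI arm is CCI 1 alone, the highest library for Stat3, and with the Schwann cell level as a covariate (0.70, adjusted p = 0.0457).

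Socs3 showed the largest change of the tested genes of the route. It encodes a protein that binds gp130 and the Janus kinases and shuts the signal off. Socs3 had 159, 109 and 93 counts in CCI and 18 and 25 in SHAM, or 7.36, 4.33 and 4.93 CPM against 0.818 and 1.25 CPM. CCI 2, the lowest CCI library, was well above SHAM 2, the higher SHAM library, and CCI 1 was the highest, as it was for Stat3. Socs3 rose by 2.42 (SE 0.35, 5.35-fold, 95% interval 3.07 to 9.32, adjusted p = 0.00733), from 1.03 ± 0.305 CPM (SD, n = 2) to 5.54 ± 1.6 CPM (SD, n = 3). Its log2 fold change was 2.68 with the Schwann cell level as a covariate, which was called; it was 2.82 and called with CCI 2 and CCI 3 left out, which keeps only CCI 1, the highest library. Leaving out a SHAM library again ended the call, with log2 fold changes of 2.14 without SHAM 1 (adjusted p = 0.158) and 2.74 without SHAM 2 (adjusted p = 0.07). For Il6r, Osmr and Socs3 permuting the libraries exactly (two-sided, on log2 CPM) gave p = 0.1, the smallest that the 10 splits of these 5 libraries allow, and for Stat3 it gave p = 0.2.

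Levels of different genes can be compared on the authors' TPM scale, which divides by transcript length. In SHAM the order from the highest was Il6st (56.4 ± 6.41, SD, n = 2), Lifr (42.9 ± 5.85), Stat3 (32.7 ± 3.47), Cntf (15.3 ± 2.57), Il6r (3.08 ± 0.0686), Socs3 (1.87 ± 0.517), Osmr (1.51 ± 0.399), Clcf1 (0.377 ± 0.0474), Lif (0.292 ± 0.214) and Il6 (0.0675 ± 0.00354). In that order the ranges of Socs3 and Osmr overlapped, as did those of Clcf1 and Lif. In CCI the order began with Il6st (67.9 ± 12.6, SD, n = 3), Stat3 (44.8 ± 8.72), Lifr (42.6 ± 9.49) and Cntf (16.5 ± 0.677), with overlapping ranges of Stat3 and Lifr. Socs3 (10.2 ± 2.81) and Il6r (7.55 ± 1.47) followed with overlapping ranges, then Osmr (3.56 ± 0.598) and the other ligands below 1. In both groups the shared chain gp130 was thus the most abundant transcript of the set.

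Ratios within a library, on the same TPM scale, do not depend on how libraries were scaled. Il6r amounted to 9.61%, 9.39% and 15.2% of Il6st in CCI 1 to 3 and to 5.13% and 5.84% in SHAM, so the CCI libraries were all above the SHAM libraries. Osmr amounted to 5.01%, 5.16% and 5.63% of Il6st in CCI and to 2.94% and 2.37% in SHAM. Here the CCI libraries lay closer together (5.27 ± 0.323%, SD, n = 3) than in the Il6r ratio (11.4 ± 3.28%, SD, n = 3). Lifr amounted to 75.8%, 38.4% and 82.7% of Il6st in CCI and to 77.2% and 74.7% in SHAM, with CCI 2 alone at a low value. Socs3 amounted to 24.4%, 20.3% and 22.9% of Stat3 in CCI and to 4.29% and 7.39% in SHAM. The ratios of Il6r and Osmr to Il6st and of Socs3 to Stat3 each had an exact two-sided permutation p of 0.1, the smallest possible, and the ratio of Lifr to Il6st had p = 0.9.

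Other genes of the route, with related Janus kinase, STAT and inhibitor genes, were taken from a list of 38, chosen with earlier results of these data known. Of the 38, 35 were in the table and 33 were tested. In that list 4 genes were called higher and none lower, where 2.59% of all tested genes were called higher and 0.26% lower. The median log2 fold change was 0.10. At an unadjusted p under 0.05 in edgeR's test 1 gene was lower. The likelihood ratio test, DESeq2 and limma-voom called none lower, where over all tested genes they called 75, 69 and 34 lower. The calls were Jak3, Stat6, Ptpn1 and Ptpn6. Among 4 tested ligands and soluble subunits none was called; the oncostatin M gene Osm had 6, 13 and 11 counts in CCI and 1 and 6 in SHAM (log2 fold change 1.41, SE 0.74, adjusted p = 0.395). None of 3 tested receptor genes was called, while the 1 gene lower at an unadjusted p under 0.05 was Il11ra1, the interleukin-11 receptor gene (log2 fold change -0.28, SE 0.10, adjusted p = 0.218). Cntfr, whose product binds Cntf, stood at 16, 12.9 and 16.4 CPM in CCI against 17.4 and 17.9 CPM in SHAM.

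Of 7 kinase and adaptor genes 1 was called. Jak3, a Janus kinase that serves receptors with the common gamma chain and not gp130, rose by 0.78 (SE 0.15, adjusted p = 0.0283). Jak2 stood at 60.3, 70.9 and 65.2 CPM in CCI against 43.7 and 44.7 CPM in SHAM; its adjusted p of 0.0281 passed, but its 1.48-fold change was under the fold threshold. Jak1, the kinase most used by gp130, differed by 0.02 on the log2 scale (SE 0.10, adjusted p = 0.934).

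Of 6 other STAT genes 1 was called. Stat6, which carries the signals of IL-4 and IL-13, stood at 16, 19.7 and 17.1 CPM in CCI against 8.09 and 8.74 CPM in SHAM and rose by 1.07 (SE 0.15, adjusted p = 0.00669).

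Of 13 tested inhibitors 2 were called, both of them phosphatases. Ptpn6, the gene of SHP-1, which is known mainly from blood and microglial cells, stood at 29, 36.8 and 20.9 CPM in CCI against 6.96 and 7.05 CPM in SHAM, a rise of 2.05 (SE 0.24, adjusted p = 0.00432). Ptpn1, whose product PTP1B dephosphorylates Janus kinases, rose by 0.78 (SE 0.13, adjusted p = 0.0164). No other member of the SOCS family was called: Socs1 had a log2 fold change of 0.71 (adjusted p = 0.431), Socs2 of 0.10, Socs4 of 0.02, Socs5 of 0.09, Socs6 of 0.18 and Cish of 0.31. With the Schwann cell level as a covariate 1 of the 4 calls in the list was made, that of Ptpn6, where 185 of all tested genes were called against 384 without it; Jak3, Stat6 and Ptpn1 had log2 fold changes of 0.83, 0.98 and 0.75 there. Without either SHAM library none of the 4 was called.

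**Figure D2:**
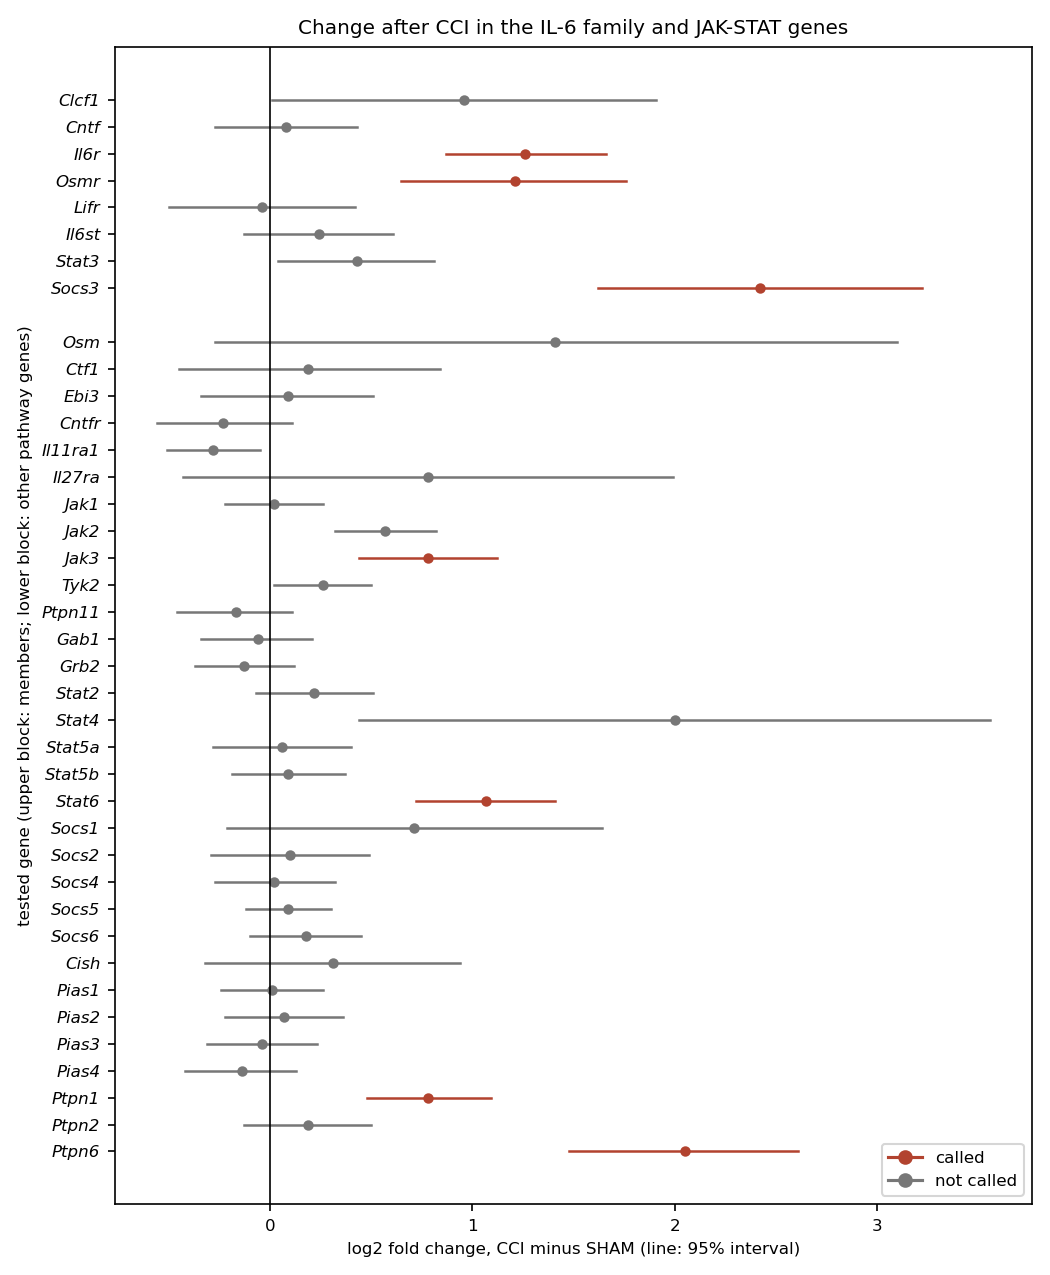
Log2 fold change (CCI minus SHAM) with its 95% interval, not adjusted for the number of genes. The upper block holds the 8 tested members and the lower block 31 tested genes of the list of 38. Red marks are called. Il6r, Osmr and Socs3 in the upper block and Jak3, Stat6, Ptpn1 and Ptpn6 in the lower block are called, all to the right of 0.

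Genes known as STAT3 targets in some tissue were taken from a list of 24, picked with earlier results of these data known, so their direction is not independent evidence. Of 22 tested, 10 were called higher and none lower, where 2.59% of all tested genes were called higher and 0.26% lower. The median log2 fold change of the 22 was 1.01, and at an unadjusted p under 0.05 in edgeR's test 0 were lower. DESeq2 called 15 higher, the likelihood ratio test 15 and limma-voom 8, where over all tested genes they called 545, 571 and 283 higher against 349 in the quasi-likelihood test; none of these tools called any of the targets lower. Every CCI library stood above both SHAM libraries in 20 of the 22, as it did in 18.6% of all tested genes. Lcn2, a secreted iron-binding protein of reactive astrocytes, stood at 6.62, 7.23 and 7.8 CPM in CCI against 1 and 0.749 CPM in SHAM (log2 fold change 3.03, SE 0.26, adjusted p = 0.000647). Cebpd, a transcription factor gene of the acute phase response, stood at 17, 11.2 and 12.6 CPM in CCI against 3.27 and 3.05 CPM in SHAM (2.10, SE 0.23, adjusted p = 0.00173). Both genes lay well apart between the groups.

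The other calls among the targets included genes of the cytoskeleton, the matrix and the cell surface. Timp1, an inhibitor of matrix metalloproteinases, rose by 2.44, and Vim, an intermediate filament gene of reactive astrocytes, by 2.01. The secreted glycoprotein gene Lrg1 rose by 1.71, the adhesion molecule gene Icam1 by 1.51, the astrocyte filament gene Gfap by 1.04 and the interleukin-4 receptor gene Il4r by 0.89. Bcl3 (1.97) and Cebpb (0.71) complete the 10 and were named after their values were seen. Cebpb had fractional counts and is uncertain. When the Schwann cell level was a covariate 7 of the 10 were called, and Icam1, Bcl3 and Cebpb were not. That fit called 185 of all tested genes against 384 without the covariate.

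Some targets with large differences were not called, and their CCI libraries varied widely; they too were named after their values were seen. Serpina3n, a protease inhibitor gene of reactive astrocytes, stood at 20.5, 3.22 and 9.23 CPM in CCI against 1.27 and 0.799 CPM in SHAM (log2 fold change 3.39, adjusted p = 0.216). Ccl2, a chemokine that attracts monocytes, stood at 4.49, 1.51 and 2.12 CPM in CCI against 0.0455 and 0.45 CPM in SHAM (3.46, SE 0.82, adjusted p = 0.0844). It had 97, 38 and 40 counts in CCI and 1 and 9 in SHAM, so its fold change rests on few SHAM counts. Serpina3n and Ccl2 were both highest in CCI 1, the library that was also highest for Stat3 and Socs3. A2m, also not called, was lowest in CCI 1 among the CCI libraries, at 152, 345 and 233 CPM in CCI 1 to 3. Of the 22 tested targets 6 were highest in CCI 1 among the CCI libraries, 9 in CCI 2 and 7 in CCI 3. The acute phase gene Hp and the survival gene Bcl2l1 had log2 fold changes of -0.10 and -0.07, and their groups overlapped. Bcl2l1 had fractional counts.

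**Figure D3:**
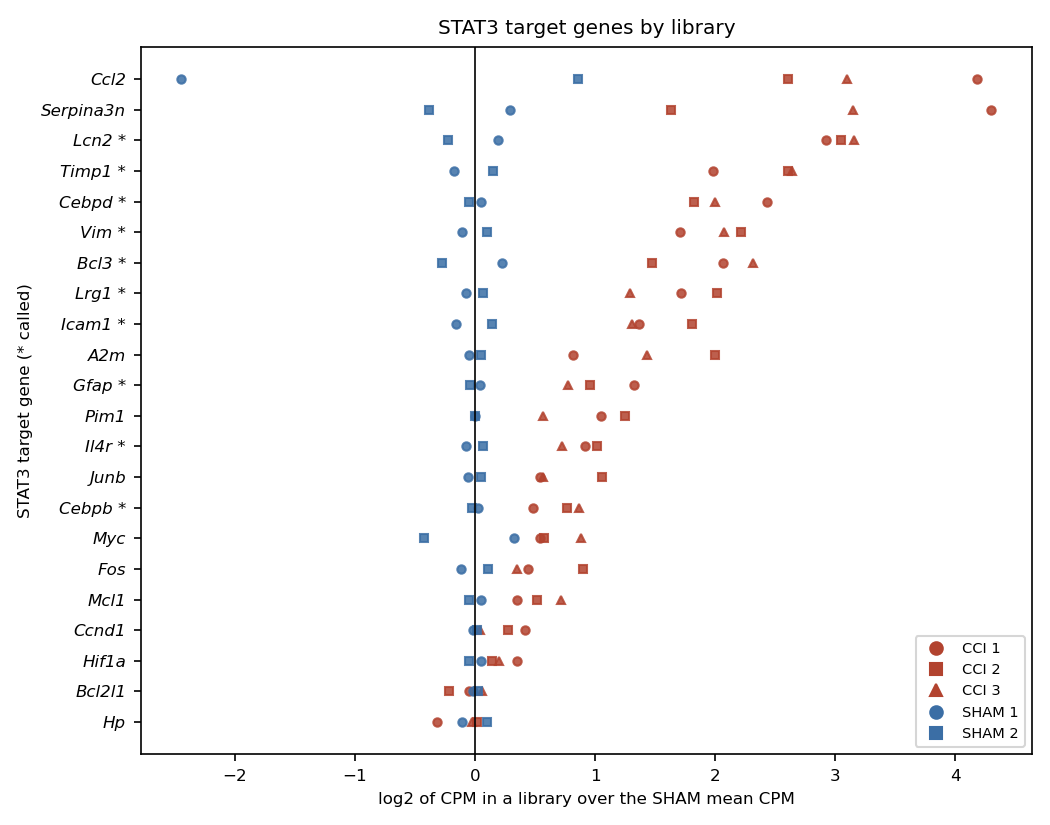
Level of the 22 tested STAT3 target genes in each library, as the log2 ratio to the SHAM mean CPM; red marks are CCI libraries, blue marks SHAM libraries, and asterisks mark called genes. In 20 of the 22 genes the red marks lie to the right of both blue marks, as in 18.6% of all tested genes. The exceptions are Hp and Bcl2l1.

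Of 8 astrocyte markers, Gfap was the 1 called. The median log2 fold change of the 8 was 0.24, and the summed level, most of it Gfap and Aqp4, was 7750 to 9516 CPM in CCI against 5890 to 5959 CPM in SHAM; none was at 0. Aqp4, the astrocyte water channel gene, stood at 1932, 1860 and 1968 CPM in CCI against 1611 and 1524 CPM in SHAM (log2 fold change 0.29, adjusted p = 0.236). Aldh1l1, a folate enzyme gene of astrocytes, lay the other way, at 57, 58.2 and 49.9 CPM in CCI against 70.1 and 78.2 CPM in SHAM (-0.43, SE 0.11, adjusted p = 0.0875), with every CCI library below both SHAM libraries. Sox9 had a log2 fold change of 0.65 with CCI 3 the highest at 43.3 CPM (adjusted p = 0.488), and Slc1a2 and S100b had -0.09 and -0.08, with overlapping groups in all 3 genes. Counts of Aqp4, Sox9 and Slc1a2 were fractional. Markers of T cells and of blood neutrophils and monocytes were low. Over the 5 T cell markers in the table the sum was 9.26 to 16 CPM in CCI against 3.55 to 5.18 CPM in SHAM. Most of it was Cd2 and Cd6, the 2 tested, of which Cd6 was called higher. Cd3e was at 0 in both SHAM libraries and in CCI 1, at 2.22 CPM in CCI 2 and at 0.477 CPM in CCI 3. Over 4 markers of neutrophils and monocytes the sum was 15.2 to 18.3 CPM in CCI against 3.7 to 4.14 CPM in SHAM, almost all of it Csf3r, with S100a8 at 0 in SHAM and at most 0.212 CPM in CCI. The part of these cells in the results above was not tested. In CCI 1 the summed Schwann cell markers, at 121 CPM, lay between the SHAM libraries and the summed fibroblast markers, at 150 CPM, below both, although Ngfr (23.1 against 9.77 and 9.99 CPM), Pmp2 (4.03 against 1.82 and 2.75 CPM) and Aldh1a2 (3.56 against 2.55 and 2.85 CPM) of these lists were above both.

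**Figure D4:**
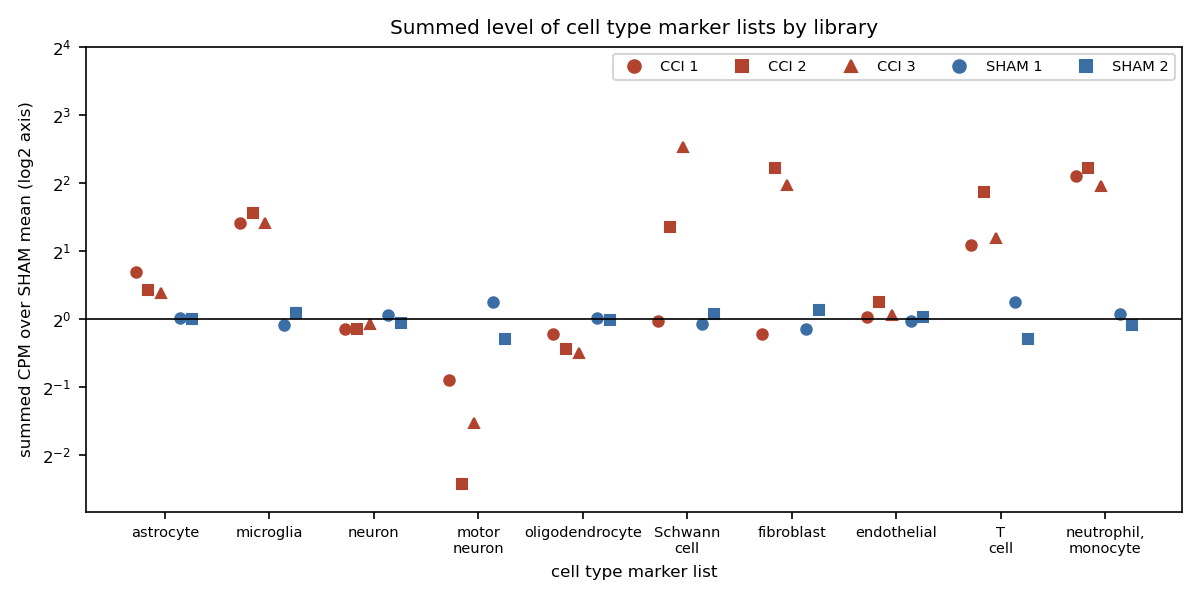
Summed CPM of each cell type marker list in each library, divided by the SHAM mean, on a log2 axis; red marks are CCI and blue marks SHAM libraries. Microglial markers are evenly high in the 3 CCI libraries, Schwann cell and fibroblast markers are high in CCI 2 and CCI 3 alone, and motor neuron markers are low in all 3 CCI libraries.

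Promoter sequence was examined for the letters TTCNNNGAA, the palindrome that STAT dimers are known to bind, in the 250 bases before each start site of the RefSeq annotation (GRCr8, a later build than the rn6 named for the counts). Because the palindrome reads the same on both strands, 1 search covers both. It occurred in 7.67% of all 33469 windows. Of the 10 genes, 8 had a window (all but Lif and Clcf1) and none held the letters. Of 25 genes with a window in the list of 38, 2 held them, Cish and Socs1. Of 17 target genes 4 did, Bcl2l1, Fgb, Icam1 and Serpina3n. Windows depend on where the annotation puts the start: the 50 bases after it hold an ATG for Il6r, Il6st, Lifr and Socs3, as 49.3% of all windows do, and whether these starts are the ones used in this tissue was not tested. A match is a description and not a bound site. The 3 windows below are shown because Osmr rose with no match, Icam1 rose (8.65, 11.7 and 8.27 CPM in CCI against 3 and 3.7 CPM in SHAM) with 1 match, and Cish, another inhibitor of the SOCS family, was not called (2.82, 2.34 and 2.97 CPM against 2.36 and 2 CPM) with 4. Matches are in capitals. Osmr lies at chr2:57688562-57688811 on the minus strand, Icam1 at chr8:27829595-27829844 and Cish at chr8:116850719-116850968, both on the plus strand.
Osmr: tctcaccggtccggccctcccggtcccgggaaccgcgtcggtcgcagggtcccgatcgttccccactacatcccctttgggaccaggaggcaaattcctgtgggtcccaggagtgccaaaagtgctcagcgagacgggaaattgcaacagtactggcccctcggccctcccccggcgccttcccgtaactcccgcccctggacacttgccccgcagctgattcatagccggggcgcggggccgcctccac
Icam1: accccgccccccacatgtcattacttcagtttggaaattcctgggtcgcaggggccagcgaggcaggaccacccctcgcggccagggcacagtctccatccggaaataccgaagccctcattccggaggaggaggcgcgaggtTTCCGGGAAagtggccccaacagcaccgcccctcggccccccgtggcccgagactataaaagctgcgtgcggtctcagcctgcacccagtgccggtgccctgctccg
Cish: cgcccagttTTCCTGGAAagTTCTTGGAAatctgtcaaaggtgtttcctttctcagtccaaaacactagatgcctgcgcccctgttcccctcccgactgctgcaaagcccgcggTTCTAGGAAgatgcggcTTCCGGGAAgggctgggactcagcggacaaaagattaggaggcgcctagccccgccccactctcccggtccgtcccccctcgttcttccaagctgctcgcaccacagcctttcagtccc

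The match in Icam1 begins 107 bases before the start site, and those in Cish begin 241, 230, 136 and 119 bases before it.

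The genes whose levels most resembled each called member over the 5 libraries were found by the Euclidean distance between centred log2 CPM values, among 12753 genes with a mean of at least 1 CPM. Nearest to Il6r were Il1r1 (distance 0.18; 10.1, 14.6 and 16.1 CPM in CCI against 5.09 and 4.9 CPM in SHAM), Cd53 (0.19), whose counts were fractional, and Mmp19 (0.20). Like Il6r, Il1r1, the interleukin-1 receptor gene, was lowest in CCI 1 and highest in CCI 3 among the CCI libraries. Nearest to Osmr were B4galt1 (0.15), Dnajc22 (0.20) and Lpxn (0.23). Socs3 had no neighbour as close: Cebpd came first at a distance of 0.37, then Ccl2 at 0.53 and Gapt at 0.56. The distance is not scaled by the size of a gene's change, and Socs3 had the largest change of the called members. Cebpd and Ccl2 were, like Socs3, highest in CCI 1 and lowest in CCI 2 among the CCI libraries. Gapt was not, at 4.12, 4.37 and 3.82 CPM in CCI 1 to 3. All these neighbours were picked on the same values.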

How the data were processed

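RNA of 3 CCI and 2 SHAM libraries was sequenced; groups follow the treatment label, and replicates are numbered by accession, with no pairing. Estimated counts by gene symbol were deposited by the authors; kallisto 0.44.0 and rn6 are named in the submitters' processing notes; the annotation is not given in the sources used here. The authors also deposited a TPM table scaled by trimmed mean of M-values (TMM) per the labels, treated as a signal because its columns sum to 903964 to 1050114. Here counts were rounded, and 13478 of 17321 genes passed edgeR's filterByExpr (minimum count 10). The test was the two-sided quasi-likelihood F test of edgeR 4.0.16 (R 4.3.3) with TMM scaling and robust dispersion, Benjamini-Hochberg adjusted over all tested genes. The SE is the log2 fold change over the root of F, and the 95% interval uses the fit's degrees of freedom. CPM are counts over TMM-scaled library sizes; the deeper a gene's counts, the smaller its error. The exact permutation test used log2(CPM + 0.5), and the test of the ratios log2 of the ratio. Fractional counts occurred in 20.5% of tested genes. Of the named genes not marked above, Tac1, Socs6 and Ngfr had them.

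The members, gene lists, naming rule and alternatives were chosen with earlier results of these data known. The rule names all members, up to 8 called genes of each list by p, and the 3 nearest genes of each called member. Alternatives were DESeq2 1.42.0, limma-voom (limma 3.58.1), edgeR's likelihood ratio test, other scalings and filters, the TPM table on the log2(value + 0.5) or log2(value + 0.1) scale, leaving out libraries or ribosomal rows, a covariate (the Schwann cell markers averaged as log2(CPM + 1)), and no fold threshold. Scripts were tested on simulated data. Il27, Il31, Socs7, Trbc2 and Ccr2 of the lists were not analysed here, and 2 tested genes of the lists are not reported here.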

Additional observations from a re-analysis of the deposited data

How the results depend on the processing

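Of the 18 alternatives, leaving out a SHAM library changed most: the number of members called was 0 to 3 over the settings that leave out 1 library, that of other pathway genes 0 to 6 and that of STAT3 targets 2 to 14, with the lowest values without SHAM 1 or SHAM 2. There the lone SHAM library is assumed to vary like the CCI libraries. In all genes, 61 were called without SHAM 1, 78 without SHAM 2 and 763 without CCI 1, against 384 with all libraries. Where edgeR's quasi-likelihood test called none, 3 members had an unadjusted p under 0.05 without SHAM 1 and 3 without SHAM 2, and of the other pathway genes 5 and 7. With the Schwann cell level as a covariate 1 other pathway gene and 7 STAT3 targets were called, and 185 of all genes. Directions of Il6r, Osmr, Socs3, Stat3, Il6st and Clcf1 held in every alternative. Cntf ranged from -0.08 (without SHAM 2) to 0.25, and Lifr, at -0.04 as reported and down to -0.18 without SHAM 2, turned to 0.14 without CCI 2, 0.10 without SHAM 1, 0.12 with CCI 2 and CCI 3 left out and 0.03 with the covariate; the cause was not tested. No paired analysis was possible because the labels carry no replicate numbers shared by the groups. Il6, Lif and Osm rest on few counts, and a difference in Lif was not detectable at this depth.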
